A study of Mus musculus with 10 samples.

Results

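Foxp3+ regulatory T cells were set against conventional CD4 T cells that carry CD25, the chain that gives the IL-2 receptor its high affinity, but no Foxp3 protein. The comparison used 4 of the 10 Affymetrix mouse arrays of the series, taken by their titles as 2 pairs: GFP+ CD4+ cells minus GFP- CD25+ CD4+ cells from untreated mice, and the same populations from mice given IL-2. Both populations were sorted from lymph node and spleen cells, pooled, of female mice aged 6 to 8 weeks, homozygous for the Foxp3(gfp) allele and backcrossed for 8 to 10 generations from 129/Sv to C57BL/6. This knock-in allele makes Foxp3 as a fusion with green fluorescent protein, so GFP marks cells that hold the protein, and both populations carry it. IL-2 was injected at 50 ng per g, 4 times within 24 h, and cells were taken 30 min after the last injection. The labels do not say whether the untreated mice received vehicle. The remaining arrays were GFP+ cells of Foxp3(gfpko/wt) females with and without IL-2, which read the locus but make GFP in place of Foxp3 (here gfpko GFP+ cells), GFP- CD25- cells of the Foxp3(gfp/gfp) line, and 3 arrays of transduced cells, of which the empty vector one is used below. For it, CD25+ CD4+ cells of C57BL/6 mice and CD25- CD4+ cells of B6.SJL mice were activated in culture with IL-2, given the MigR1 retrovirus and moved together into hosts that lack TCRalpha. Those sorted were GITR+ CD4+, of C57BL/6 origin (Ly5.1-), and GFP+ from the vector rather than from the Foxp3 locus. The gfpko line was backcrossed for 5 generations. The age given for these other arrays was also 6 to 8 weeks.

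Regulatory T cells restrain immune responses and depend on Foxp3, a forkhead transcription factor, for their identity. They carry CD25 constitutively and consume IL-2, which signals through JAK kinases and STAT5. Conventional CD4 T cells acquire CD25 when activated and can make helper cytokines, which regulatory cells largely do not, so both populations can bind IL-2 with high affinity while differing in function.

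Each group was 1 array, so there were no replicates of a condition, and weight was placed on whether the untreated and the IL-2 pair agreed. Values are levels on the log2 scale of the deposited table, and each pair of values below gives the untreated array and then the IL-2 array. Differences are log2 differences, GFP+ minus GFP- CD25+, fitted over both pairs, and SE is their standard error. A gene was called at a limma adjusted p under 0.05. The spread was taken from the 6 arrays of GFP+, GFP- CD25+ and gfpko GFP+ cells, as the disagreement of their IL-2 responses. The p-values therefore measure agreement between states over these populations and not repeatability between animals. A gene can miss the call although the pairs agree, where gfpko GFP+ cells responded differently to IL-2. Cd22, for example, differed by -1.70 and -1.58 in the pairs, with gfpko GFP+ levels of 2.82 and 4.40. The medians of all probe sets on the 4 arrays were 3.05 and 3.04 in GFP+ cells and 3.07 and 3.06 in GFP- CD25+ cells. A gene below the median was treated as not above background. As a measure of RNA integrity, the Actb control at the 3′ end exceeded the one at the 5′ end by 3.07 and 2.70 in GFP+ cells and 3.80 and 2.86 in GFP- CD25+ cells. The Gapdh controls differed by 5.55 and 5.53 in GFP+ cells and 6.43 and 5.24 in GFP- CD25+ cells, so both were lower in GFP+ cells in the untreated pair and they went opposite ways in the IL-2 pair. The part of RNA integrity in the differences below was not tested. In sorted populations a lower share of positive cells and less RNA per cell cannot be told apart.

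The sort genes matched their labels. Foxp3 had levels of 10.86 and 10.86 in GFP+ cells, against 3.90 and 2.85 in GFP- CD25+ cells. The GFP+ arrays were far above both others, which lay near the array median or, with IL-2, below it, and the fitted difference was 7.49 (SE 0.525, adjusted p = 0.00852). Since GFP from this locus was the gate, that difference is a property of the sort. Il2ra, which encodes CD25, had levels of 11.11 and 11.56 in GFP+ cells, against 7.91 and 7.90 in GFP- CD25+ cells, and 3.45 in GFP- CD25- cells. GFP+ cells were not sorted on CD25 and still exceeded the CD25-sorted cells by 3.43 (SE 0.442, adjusted p = 0.026). Cd4 had levels of 10.46 and 10.47 in GFP+ cells, against 10.45 and 10.43 in GFP- CD25+ cells, a difference of 0.02 (SE 0.165, adjusted p = 0.962).

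The pairs agreed closely. Of 11938 genes tested, 630 rose (5.28%) and 412 fell (3.45%) in GFP+ relative to GFP- CD25+ cells, 8.73% in all. Genes called this way must nearly all agree between the pairs, since disagreement enters the spread. By size alone, with no test, each of the pairs showed a difference of 2-fold or more, in a common direction, for 607 genes (5.08%). Of these 373 were higher (3.12%) and 234 lower (1.96%), and 336 and 202 of them were also called. In the untreated pair 946 genes differed at least 2-fold, 518 higher and 428 lower. After IL-2, 915 of them (96.7%) had the same sign and 64.2% were at least 2-fold different the same way. In the IL-2 pair 854 genes differed at least 2-fold, 564 higher and 290 lower. Without IL-2, 840 of them (98.4%) had the same sign and 71.1% were at least 2-fold different the same way. No gene differed at least 2-fold in opposite directions. Across all genes, which share arrays and normalization and are not replicates, the differences of the pairs correlated at 0.857. The median difference over all genes was -0.03.

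**Figure D1:**
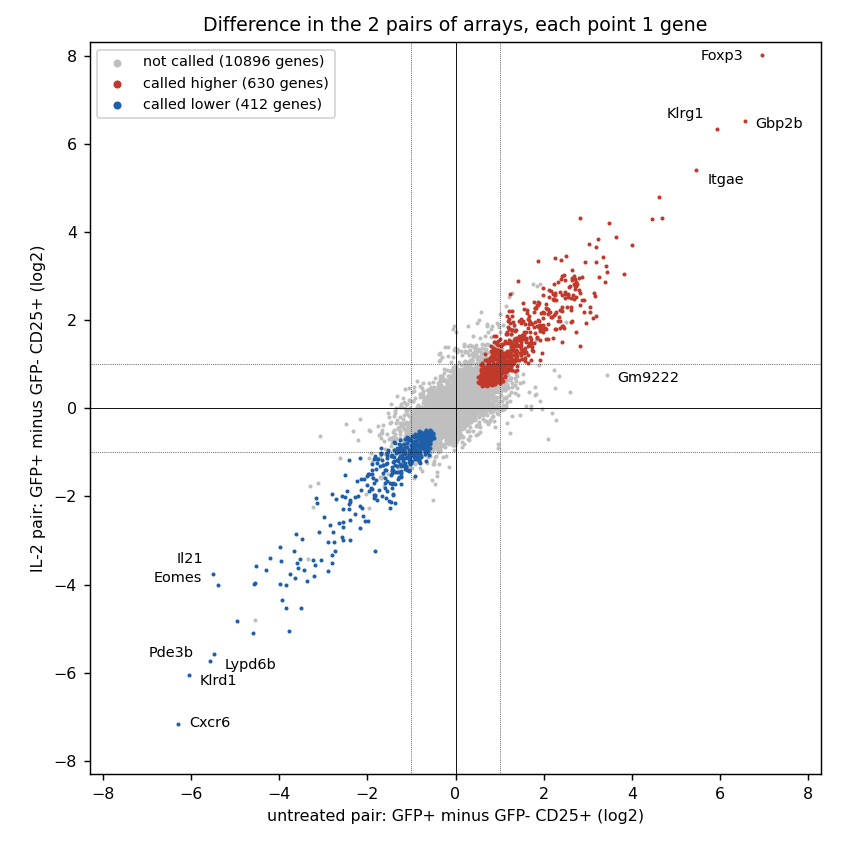
Log2 difference between GFP+ and GFP- CD25+ cells in the untreated pair (x axis) and in the IL-2 pair (y axis), each point 1 of 11938 genes, with dotted lines at a 2-fold difference. The 630 genes called higher and the 412 called lower reach from Foxp3 at the upper right to Cxcr6 at the lower left, and Gm9222 lies off the diagonal.

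Among genes at or above the array median on all 4 arrays, so that both sides were measured, the largest increases included several cell surface proteins. Klrg1, an inhibitory lectin-like receptor that binds cadherins, had levels of 10.79 and 11.17 in GFP+ cells, against 4.86 and 4.84 in GFP- CD25+ cells. The GFP+ arrays did not overlap with the others, and the difference was 6.13 (SE 0.303, adjusted p = 0.00516). Itgae, the CD103 integrin chain that pairs with Itgb7 and binds E-cadherin on epithelium, had levels of 11.28 and 11.09 in GFP+ cells, against 5.82 and 5.68 in GFP- CD25+ cells. This was a 43.3-fold rise with 2 probe sets in agreement (difference 5.44, SE 0.107, adjusted p = 0.00402). Epcam, an epithelial adhesion molecule, had levels of 8.10 and 8.56 in GFP+ cells, against 5.29 and 4.25 in GFP- CD25+ cells, a difference of 2.81 in the untreated pair and 4.31 in the IL-2 pair. Its 2 probe sets ranged from 0.08 to 3.56, so its size is uncertain. Gpr83, an orphan G protein-coupled receptor typical of regulatory cells, had levels of 11.99 and 11.96 in GFP+ cells, against 8.34 and 8.09 in GFP- CD25+ cells (difference 3.76, SE 0.436, adjusted p = 0.021). Itgb8, which with the alpha V chain releases active TGF-beta, had levels of 8.70 and 8.68 in GFP+ cells, against 5.48 and 4.84 in GFP- CD25+ cells (difference 3.53, SE 0.182, adjusted p = 0.00516).

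The 20 largest increases also held genes of other kinds. Ncmap, first known from myelin, had levels of 9.27 and 9.15 in GFP+ cells, against 5.26 and 5.45 in GFP- CD25+ cells (difference 3.86). Prg4, the lubricant proteoglycan of joints, had levels of 9.56 and 9.31 in GFP+ cells, against 6.15 and 6.08 in GFP- CD25+ cells (difference 3.33), and 9.79 and 9.41 in gfpko GFP+ cells. The glutathione transferase Gsta4 had levels of 8.73 and 8.63 in GFP+ cells, against 5.79 and 5.31 in GFP- CD25+ cells (difference 3.13). Nrn1, the neuritin that promotes neurite growth, had levels of 10.79 and 10.69 in GFP+ cells, against 7.54 and 7.70 in GFP- CD25+ cells (difference 3.12), and was lower in gfpko GFP+ cells, at 5.51 and 5.99, than in either compared population. Rragd, a GTPase that carries amino acid signals to mTORC1, differed by 3.26, and Swap70, a guanine nucleotide exchange factor, by 2.85. Itih5 (difference 3.12), Ppm1l (difference 3.84), Fah (difference 2.93), Aldoc (difference 2.90) and Camk2n1 (difference 2.88) were in the same group. For Rragd, Aldoc, Camk2n1 and Ppm1l another probe set of the gene gave -0.02, 0.02, 0.22 and 0.77, so these sizes rest on 1 probe set.

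On the other side, the chemokine receptor Cxcr6 had levels of 4.46 and 3.54 in GFP+ cells, against 10.75 and 10.69 in GFP- CD25+ cells. It was the largest measured decrease, 106-fold, at -6.72 (SE 0.237, adjusted p = 0.00479), with 2 probe sets in agreement. Pde3b, a phosphodiesterase that breaks down cAMP, had levels of 6.06 and 5.90 in GFP+ cells, against 11.62 and 11.63 in GFP- CD25+ cells. Its difference of -5.65 (SE 0.121, adjusted p = 0.00402) hardly moved between the pairs. Eomes, a T-box factor of cytotoxic and memory cells, had levels of 4.03 and 4.49 in GFP+ cells, against 9.41 and 8.51 in GFP- CD25+ cells (difference -4.70, SE 0.347, adjusted p = 0.00893). Pou2af1, a coactivator of octamer-binding factors, had levels of 4.70 and 5.00 in GFP+ cells, against 9.27 and 8.98 in GFP- CD25+ cells (difference -4.27, SE 0.212, adjusted p = 0.00516). Id2, an inhibitor of E proteins, had levels of 7.75 and 8.26 in GFP+ cells, against 11.96 and 11.66 in GFP- CD25+ cells (difference -3.80, SE 0.264, adjusted p = 0.00834). It stayed well above background in GFP+ cells. Ffar2, a receptor for short-chain fatty acids, fell by 4.19 (3.45 and 3.28 in GFP+ cells, against 7.30 and 7.81 in GFP- CD25+ cells). Vipr1, the receptor for vasoactive intestinal peptide, fell by 3.64 (4.32 and 3.87 in GFP+ cells, against 7.68 and 7.79 in GFP- CD25+ cells). Ctla2a and Ctla2b, cysteine protease inhibitors, fell by 3.99 and 3.50.

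**Figure D2:**
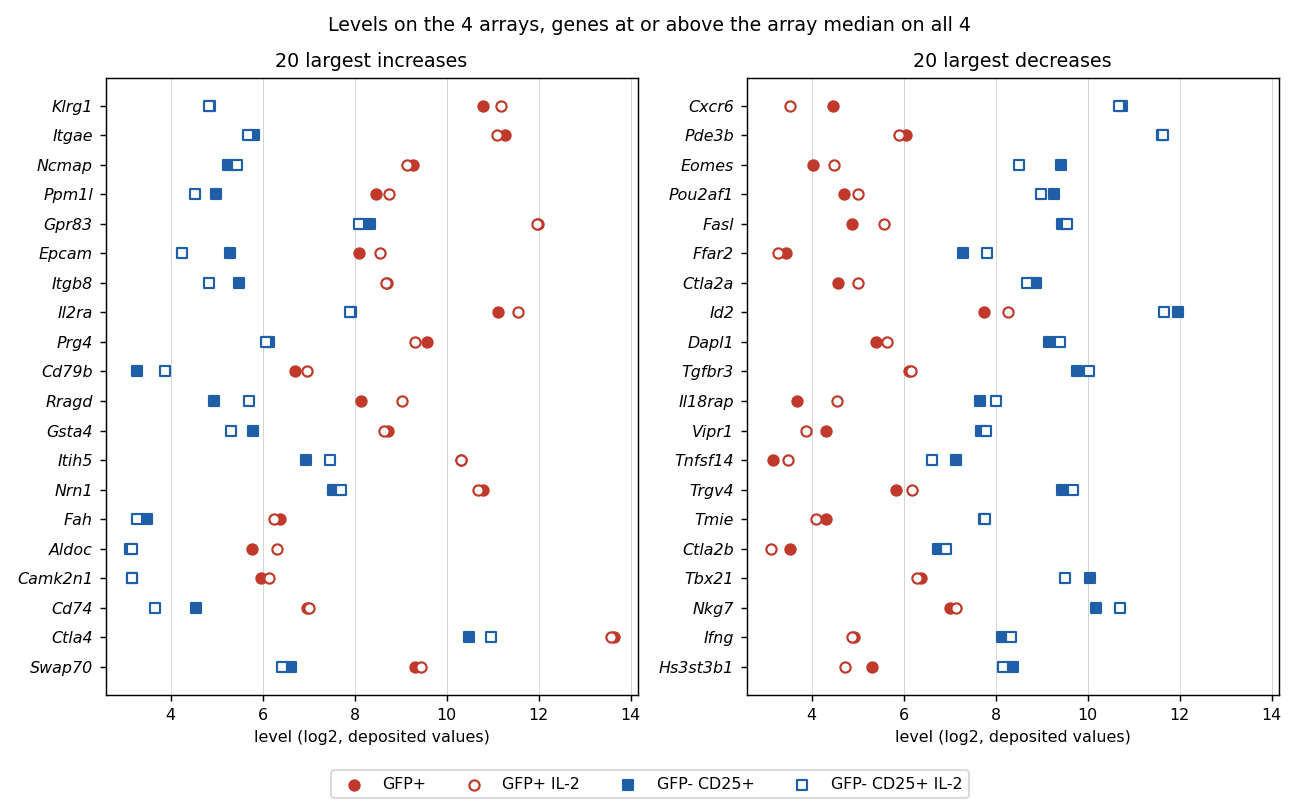
Log2 levels on the 4 arrays of the 20 largest increases (left) and the 20 largest decreases (right) among called genes at or above the array median on all 4 arrays, with circles for GFP+ and squares for GFP- CD25+ cells, filled without and open with IL-2. In every row the 2 circles lie on one side of the 2 squares, and the gap is widest for Klrg1 and Cxcr6.

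Where the lower side lay below the array median on both arrays, only a bound can be given. The interferon-inducible GTPase Gbp2b, at 9.17 and 9.11 in GFP+ cells, against 2.61 and 2.60 in GFP- CD25+ cells, was at least 67.4-fold higher. The IgM-binding receptor Fcmr, at 7.67 and 7.02 in GFP+ cells, against 2.98 and 2.71 in GFP- CD25+ cells, was at least 19.4-fold higher, and the giant muscle filament protein Neb, at 7.18 and 7.17 in GFP+ cells, against 2.72 and 2.87 in GFP- CD25+ cells, at least 17.2-fold. The laminin chain Lamc1 and the syndecan Sdc4, both of the cell surface and matrix, were at least 7.81-fold and 6.77-fold higher, with another Sdc4 probe set at 1.14. Going down, Lypd6b, at 2.68 and 2.84 in GFP+ cells, against 8.16 and 8.42 in GFP- CD25+ cells, was at least 37.8-fold lower, and the lipid flippase Atp8b4, at 2.76 and 2.76 in GFP+ cells, against 7.71 and 7.60 in GFP- CD25+ cells, at least 24.4-fold lower. The water and glycerol channel Aqp9 (2.67 and 2.48 in GFP+ cells, against 6.46 and 7.53 in GFP- CD25+ cells) was at least 15.4-fold lower and the transporter Slc16a5 at least 14.5-fold.

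For the promoters of these 60 ranked genes, RefSeq windows of GRCm38.p6, each from 250 bases before to 50 after a gene's start, were found for 18 of the 30 higher and 24 of the 30 lower genes. They were searched on both strands for the forkhead motif GTAAACA, the STAT motif TTCNNNGAA, the AP-1 motif TGANTCA, the cAMP response element TGACGTCA and the T-box motif AGGTGTGA. At least 1 motif was found for 3 of the 18 higher and 12 of the 24 lower genes. The share with any motif over all tested genes was not computed. These 2 counts therefore have no background beside them and were not tested. Shown are the 2 genes with the largest difference in each direction that had a match, to let a reader see the matches in place, with matches in capitals. The windows lie at chr3:142594597-142594896 on the plus strand for Gbp2b, chr11:78323948-78324247 on the plus strand for Aldoc, chr2:126491504-126491803 on the minus strand for Atp8b4 and chr11:53617289-53617588 on the minus strand for Il4. Aldoc and Il4 have 2 windows each in the table, of which 1 is shown.

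Gbp2b: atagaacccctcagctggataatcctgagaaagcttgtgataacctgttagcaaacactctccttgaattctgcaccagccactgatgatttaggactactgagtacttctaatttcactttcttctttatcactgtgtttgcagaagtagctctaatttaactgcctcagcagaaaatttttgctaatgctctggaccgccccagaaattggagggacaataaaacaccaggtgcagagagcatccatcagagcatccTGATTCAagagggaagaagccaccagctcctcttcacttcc

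Aldoc: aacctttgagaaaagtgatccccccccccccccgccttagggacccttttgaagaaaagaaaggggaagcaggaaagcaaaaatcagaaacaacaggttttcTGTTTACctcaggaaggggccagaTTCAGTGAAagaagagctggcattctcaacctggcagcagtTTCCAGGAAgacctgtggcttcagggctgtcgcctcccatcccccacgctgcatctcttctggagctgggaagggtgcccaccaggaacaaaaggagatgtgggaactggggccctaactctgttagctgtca

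Atp8b4: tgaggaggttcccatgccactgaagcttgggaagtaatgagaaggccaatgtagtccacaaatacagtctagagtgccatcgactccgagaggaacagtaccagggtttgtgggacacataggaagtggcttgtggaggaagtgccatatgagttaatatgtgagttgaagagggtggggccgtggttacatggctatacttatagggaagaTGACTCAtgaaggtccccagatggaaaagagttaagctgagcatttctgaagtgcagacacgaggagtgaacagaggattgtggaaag

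Il4: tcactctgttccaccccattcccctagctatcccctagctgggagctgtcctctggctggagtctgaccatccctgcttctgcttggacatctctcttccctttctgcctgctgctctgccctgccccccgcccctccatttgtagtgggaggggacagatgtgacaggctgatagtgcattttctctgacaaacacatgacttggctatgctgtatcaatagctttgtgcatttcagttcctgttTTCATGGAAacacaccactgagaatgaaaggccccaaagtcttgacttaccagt

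Gbp2b and Atp8b4 each hold an AP-1 match, Aldoc 1 forkhead and 2 STAT matches, and Il4 a STAT match. No matches overlap in these windows. Over all 9688 tested genes with a window, 3.28% held the forkhead, 8.34% the STAT, 6.34% the AP-1, 3.38% the cAMP response and 1.06% the T-box letters. Among the 285 genes with a window that were at least 2-fold higher in both pairs the shares were 5.26%, 14.4%, 11.2%, 1.05% and 1.40%. Among the 188 that were at least 2-fold lower they were 2.66%, 8.51%, 12.2%, 1.06% and 1.60%. These are descriptions of letters in a short window and no evidence of binding, and the differences between the shares were not tested.

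Gene groups were described by how many measured members were called, beside 5.28% higher and 3.45% lower over all genes. Suppressive and inhibitory molecules rose more often than they fell. Of 24 measured, 14 rose and 1 fell, with a median of 1.44 against -0.03 over all genes. Ctla4, which removes CD80 and CD86 from partner cells, had levels of 13.63 and 13.57 in GFP+ cells, against 10.50 and 10.96 in GFP- CD25+ cells (difference 2.87, SE 0.157, adjusted p = 0.00549). Both ectonucleotidases that turn extracellular ATP into adenosine rose, Entpd1 (CD39) at 6.52 and 6.66 in GFP+ cells, against 3.86 and 4.08 in GFP- CD25+ cells and Nt5e (CD73) at 11.62 and 11.67 in GFP+ cells, against 8.93 and 9.21 in GFP- CD25+ cells. Penk, the precursor of enkephalins, rose (9.33 and 9.55 in GFP+ against 6.62 and 6.62 in GFP- CD25+ cells), as did the suppressive cytokine Il10 (7.14 and 6.08 in GFP+ against 4.23 and 3.62 in GFP- CD25+ cells) and Nrp1, the co-receptor neuropilin (difference 2.75). Cd160, an inhibitory and costimulatory receptor of cytotoxic cells, was the 1 that fell (5.21 and 5.20 in GFP+ against 8.69 and 8.17 in GFP- CD25+ cells, difference -3.22). Some others did not pass. Tgfb1 had levels of 7.23 and 7.34 in GFP+ cells, against 7.19 and 7.13 in GFP- CD25+ cells, Btla of 10.80 and 10.91 in GFP+ against 11.13 and 11.29 in GFP- CD25+ cells, Cd200 of 9.67 and 9.61 in GFP+ against 9.74 and 9.67 in GFP- CD25+ cells and Cd96 of 9.73 and 9.64 in GFP+ against 9.72 and 9.75 in GFP- CD25+ cells.

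**Figure D3:**
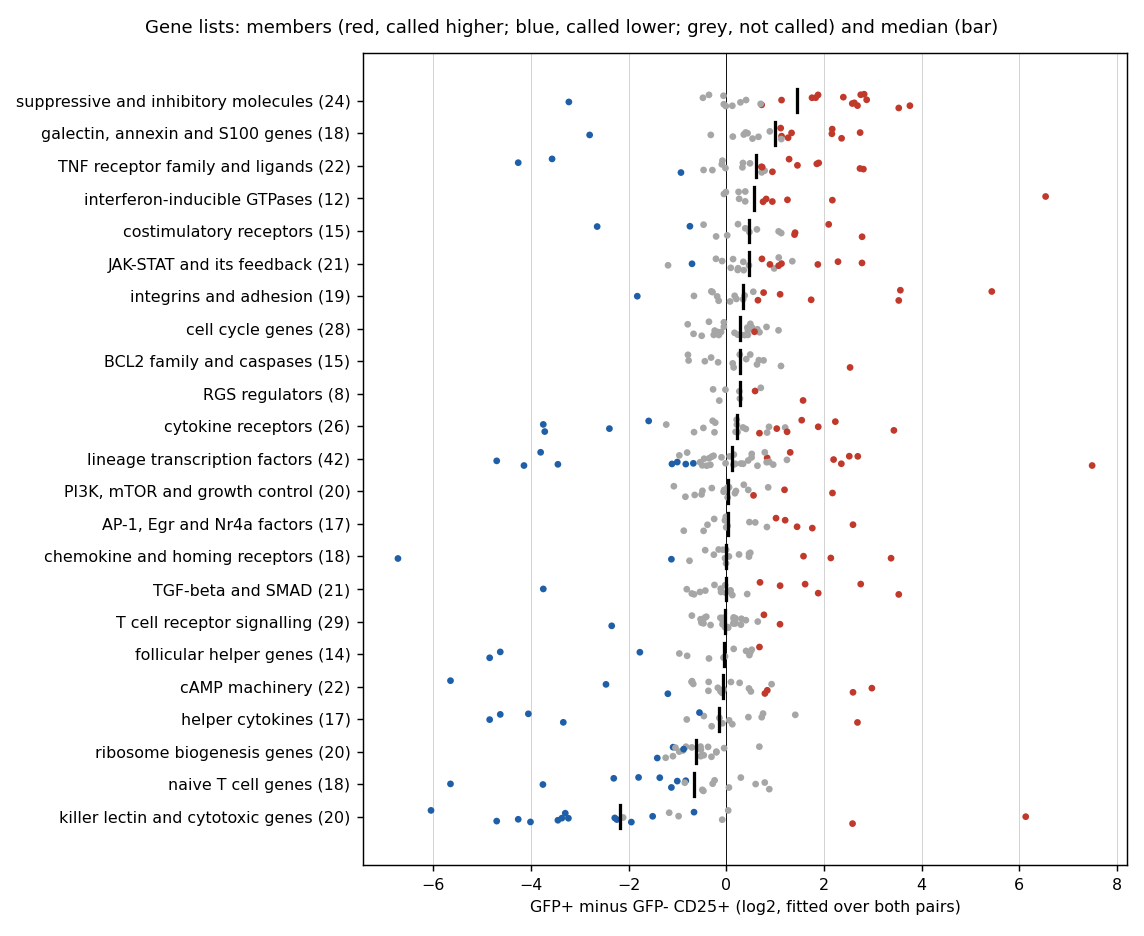
Fitted log2 difference between GFP+ and GFP- CD25+ cells (x axis) of the measured members of each gene list (number in brackets), with the list median as a bar. Of the lists drawn, which leave out cell type markers, suppressive and inhibitory molecules have the highest median, 1.44, and killer lectin and cytotoxic genes the lowest, -2.18.

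Of 22 measured genes of the TNF family, which holds costimulatory receptors, their ligands and adaptors, 9 rose and 3 fell, with a median of 0.60. Tnfrsf4 (OX40) had levels of 11.72 and 11.93 in GFP+ cells, against 9.08 and 8.97 in GFP- CD25+ cells (difference 2.81, SE 0.380, adjusted p = 0.0284). Tnfrsf1b, TNF receptor 2, had levels of 11.56 and 11.47 in GFP+ cells, against 8.86 and 8.70 in GFP- CD25+ cells (difference 2.74), although another probe set gave -0.02. Tnfrsf9 (4-1BB, difference 1.89), Tnfrsf18 (GITR, difference 1.85) and Tnfrsf13b (difference 1.46) rose too, as did the receptor Cd27 (difference 1.28), the ligand Tnfsf10 (difference 0.94) and the adaptors Traf1 and Traf2. The 3 that fell were ligands, Fasl, the death ligand (4.89 and 5.58 in GFP+ cells, against 9.44 and 9.54 in GFP- CD25+ cells), Tnfsf14, LIGHT (3.16 and 3.48 in GFP+ cells, against 7.15 and 6.62 in GFP- CD25+ cells), and Tnfsf8, the ligand of CD30 (difference -0.93). Another Fasl probe set gave -1.38. Of 15 other costimulatory receptors 4 rose and 2 fell, with Cd83 (10.13 and 9.59 in GFP+ against 7.39 and 6.78 in GFP- CD25+ cells) and Cd80 (4.92 and 5.45 in GFP+ against 3.13 and 3.04 in GFP- CD25+ cells) among those that rose and Slamf7 (3.16 and 3.72 in GFP+ against 6.30 and 5.87 in GFP- CD25+ cells) among those that fell. Another Cd80 probe set gave 0.17, and its GFP- CD25+ IL-2 array lay below the median. Cd28 (11.52 and 11.46 in GFP+ against 11.68 and 11.71 in GFP- CD25+ cells), Icos (13.05 and 12.69 in GFP+ against 12.48 and 12.32 in GFP- CD25+ cells) and Cd48 (11.96 and 12.23 in GFP+ against 10.76 and 11.28 in GFP- CD25+ cells) did not pass.

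Of 19 integrin and adhesion genes 7 rose and 1 fell, with a median of 0.35. Beside Itgae, Itgb8 and Epcam, Itga6, the laminin-binding alpha 6 chain, rose (11.20 and 11.39 in GFP+ against 9.34 and 9.77 in GFP- CD25+ cells, difference 1.74), as did Itgav, the alpha V chain (difference 1.10), of whose 4 probe sets 1 gave -0.03. Itgb3, another partner of alpha V, fell (7.73 and 7.39 in GFP+ against 9.39 and 9.37 in GFP- CD25+ cells, difference -1.82), but its other probe set gave -0.03. The LFA-1 chains Itgal (12.38 and 12.26 in GFP+ against 12.60 and 12.65 in GFP- CD25+ cells) and Itgb2 (12.54 and 12.45 in GFP+ against 12.54 and 12.76 in GFP- CD25+ cells) were abundant on all 4 arrays and did not pass. Of 18 homing receptors 3 rose and 2 fell. Gpr15, which guides cells to the large intestine, had levels of 6.29 and 5.86 in GFP+ cells, against 3.27 and 2.14 in GFP- CD25+ cells (difference 3.37), with 1 GFP- CD25+ array below the median. Ccr6, the receptor of Ccl20, rose (9.04 and 8.93 in GFP+ against 7.85 and 6.95 in GFP- CD25+ cells, difference 1.58), and Ccr8 was at least 2.66-fold higher. Ccr7, needed for entry into lymph nodes, fell with Cxcr6 (8.63 and 8.55 in GFP+ against 9.75 and 9.68 in GFP- CD25+ cells, difference -1.12). Cxcr3 was at 11.10 and 10.86 in GFP+ against 11.82 and 11.65 in GFP- CD25+ cells and did not pass.

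Cytotoxic and killer lectin genes mostly fell. Of 20 measured, 13 fell and 2 rose, with a median of -2.18. Klrd1 (CD94), which pairs with NKG2 chains, had levels of 2.86 and 3.42 in GFP+ cells, against 8.91 and 9.46 in GFP- CD25+ cells (difference -6.05, SE 0.290, adjusted p = 0.00516). Its untreated GFP+ array lay below the median, which makes it at least 61.8-fold lower. Its partner Klrc1 (NKG2A) had levels of 2.81 and 2.82 in GFP+ cells, against 6.31 and 7.34 in GFP- CD25+ cells and was at least 13.7-fold lower. Klrk1 (NKG2D) was at least 2.72-fold lower. Nkg7, a granule membrane protein, had levels of 7.01 and 7.14 in GFP+ cells, against 10.19 and 10.69 in GFP- CD25+ cells (difference -3.37). Tbx21 (T-bet), which drives interferon gamma, had levels of 6.37 and 6.28 in GFP+ cells, against 10.04 and 9.51 in GFP- CD25+ cells (difference -3.45). The 2 that rose were Klrg1 and the protease Gzmb. Gzmb had levels of 8.19 and 9.37 in GFP+ cells, against 5.06 and 7.33 in GFP- CD25+ cells (difference 2.58, SE 0.291, adjusted p = 0.0196). The IL-2 array was the higher one in both populations. Ccl5 (9.82 and 9.07 in GFP+ against 11.79 and 11.32 in GFP- CD25+ cells), Ctsw (9.23 and 8.95 in GFP+ against 10.22 and 10.30 in GFP- CD25+ cells) and Gzma (3.48 and 4.58 in GFP+ against 3.90 and 6.11 in GFP- CD25+ cells) did not pass. Among these, Ccl5 was at least 2-fold lower in both pairs (difference -2.11, SE 0.861, adjusted p = 0.232 by limma). Its levels in gfpko GFP+ cells were 3.47 and 5.90.

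Helper cytokines fell more often than they rose. Of 17 measured, 5 fell and 1, Il10, rose. Ifng, the cytokine of T helper 1 cells, had levels of 4.92 and 4.88 in GFP+ cells, against 8.14 and 8.33 in GFP- CD25+ cells (difference -3.34, SE 0.125, adjusted p = 0.00479). Il4, of T helper 2 cells, had levels of 2.32 and 2.01 in GFP+ cells, against 6.90 and 7.11 in GFP- CD25+ cells and was at least 15.6-fold lower. Il2, which regulatory cells consume and do not make, had levels of 2.56 and 2.54 in GFP+ cells, against 7.08 and 6.12 in GFP- CD25+ cells and was at least 11.8-fold lower. Il21, of follicular helper cells, had levels of 2.62 and 3.41 in GFP+ cells, against 8.12 and 7.16 in GFP- CD25+ cells, a difference of -5.50 in the untreated pair and -3.76 in the IL-2 pair. Its untreated GFP+ array lay below the median, which makes it at least 21.3-fold lower over both pairs, and another probe set gave -1.49. The other called decrease, Csf2 (2.76 and 2.74 in GFP+ against 3.28 and 3.32 in GFP- CD25+ cells), was close to background throughout. Lta (7.64 and 8.70 in GFP+ against 7.14 and 7.75 in GFP- CD25+ cells) and Il16 (a difference of 0.45) did not pass.

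Cytokine receptors changed in both directions. Of 26 measured, 7 rose and 4 fell. Il18rap and Il18r1, which together bind IL-18, both fell. Il18rap had levels of 3.69 and 4.55 in GFP+ cells, against 7.66 and 8.02 in GFP- CD25+ cells, and Il18r1 of 6.87 and 7.25 in GFP+ against 9.59 and 9.32 in GFP- CD25+ cells. Il1rl2, which binds IL-36, fell by 1.59. Il10ra rose (7.69 and 8.70 in GFP+ against 5.42 and 6.51 in GFP- CD25+ cells, difference 2.23), though another probe set gave 0.02. Ifngr1, the ligand-binding chain for interferon gamma, rose (10.91 and 11.02 in GFP+ against 9.32 and 9.52 in GFP- CD25+ cells, difference 1.54) and Ifnar1 too (difference 1.24, with another probe set at 0.21). Il7r (12.94 and 12.70 in GFP+ against 13.07 and 13.14 in GFP- CD25+ cells) and Il17ra (10.69 and 10.60 in GFP+ against 10.68 and 11.06 in GFP- CD25+ cells) did not pass. Of 21 genes of TGF-beta and SMAD signalling 6 rose and 1 fell, with a median of -0.01. Tgfbr1, the type I kinase, had levels of 10.98 and 10.78 in GFP+ cells, against 9.00 and 8.99 in GFP- CD25+ cells (difference 1.88, SE 0.169, adjusted p = 0.0128), and Tgfbr3, the accessory betaglycan, of 6.13 and 6.16 in GFP+ cells, against 9.76 and 10.02 in GFP- CD25+ cells (difference -3.75, SE 0.108, adjusted p = 0.00479). Tgfbr2, at 11.30 and 11.31 in GFP+ against 11.81 and 12.13 in GFP- CD25+ cells, did not pass (difference -0.66, SE 0.120, adjusted p = 0.0507). The transducers Smad3 (9.86 and 9.72 in GFP+ against 10.02 and 9.77 in GFP- CD25+ cells) and Smad4 (11.08 and 10.99 in GFP+ against 11.06 and 11.06 in GFP- CD25+ cells) did not pass either, while Tgif1, a repressor of SMAD targets, rose (7.21 and 6.67 in GFP+ against 5.24 and 5.42 in GFP- CD25+ cells, difference 1.61).

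Genes of JAK and STAT signalling, a list wider than IL-2 signalling, rose more often than they fell. Of 21 genes of JAK kinases, STATs and their feedback 7 rose and 1, Jak2 (difference -0.70), fell, with a median of 0.46. Cish, a STAT5-induced inhibitor, had levels of 10.37 and 11.43 in GFP+ cells, against 8.50 and 9.56 in GFP- CD25+ cells. Both IL-2 arrays were above their untreated partners, and the difference was 1.88 in the untreated pair and 1.87 in the IL-2 pair (SE 0.093, adjusted p = 0.00516). Pim1, a survival kinase induced by STAT5, had levels of 11.05 and 10.95 in GFP+ cells, against 8.43 and 9.00 in GFP- CD25+ cells (difference 2.29). Pim2, of the same list, went the other way. It was at least 2-fold lower in both pairs (difference -1.19) but did not pass. Nfil3, a basic leucine zipper factor, had levels of 5.90 and 6.03 in GFP+ cells, against 3.26 and 3.11 in GFP- CD25+ cells (difference 2.78). Socs2 had levels of 9.45 and 10.14 in GFP+ cells, against 8.62 and 8.27 in GFP- CD25+ cells, a difference of 0.83 in the untreated pair and 1.87 in the IL-2 pair, and did not pass (adjusted p = 0.125). Socs3 (11.40 and 11.74 in GFP+ against 10.45 and 10.73 in GFP- CD25+ cells) and Jak1 (11.06 and 10.96 in GFP+ against 10.50 and 11.04 in GFP- CD25+ cells) did not pass.

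Among 42 transcription factors of T cell lineages 7 rose and 8 fell. The factors that rose included partners of Foxp3. Ikzf2 (Helios) had levels of 12.43 and 12.42 in GFP+ cells, against 9.83 and 9.64 in GFP- CD25+ cells (difference 2.69, SE 0.144, adjusted p = 0.00545) and Ikzf4 (Eos) of 9.65 and 9.70 in GFP+ cells, against 7.42 and 7.22 in GFP- CD25+ cells (difference 2.35, SE 0.150, adjusted p = 0.00718). Within the same Ikaros family Ikzf3 (Aiolos) rose by 0.84, with 1 of 3 probe sets at -0.17, and Ikzf1 (Ikaros) fell by 0.67. Prdm1 (Blimp-1), which represses Il2 and permits Il10, rose (9.93 and 9.68 in GFP+ against 7.68 and 7.54 in GFP- CD25+ cells, difference 2.20), as did Plagl1, a zinc finger factor (difference 2.52, another probe set 0.64), and Gata3 (difference 1.31). Zbtb16 (PLZF), the factor of innate-like T cells, had levels of 2.50 and 2.53 in GFP+ cells, against 6.44 and 6.87 in GFP- CD25+ cells and was at least 12.2-fold lower. Runx3 (difference -1.11), Satb1 (11.97 and 11.68 in GFP+ against 12.79 and 12.86 in GFP- CD25+ cells) and Lef1 (difference -0.83) fell less. Foxo1 (11.24 and 10.97 in GFP+ against 10.79 and 10.83 in GFP- CD25+ cells), Ets1 (13.52 and 13.51 in GFP+ against 13.28 and 13.46 in GFP- CD25+ cells) and Maf (10.90 and 10.72 in GFP+ against 10.52 and 10.06 in GFP- CD25+ cells) did not pass. Of 18 naive T cell genes 8 fell and 0 rose, with a median of -0.66. These 8 include Pde3b (difference -5.65), which is also on the cAMP list, and Satb1 and Lef1. Other members did not pass, such as Foxo1 (difference 0.30) and Il7r (difference -0.28). Dapl1, a small protein of resting T cells, had levels of 5.39 and 5.64 in GFP+ cells, against 9.15 and 9.39 in GFP- CD25+ cells (difference -3.75) and 11.48 in GFP- CD25- cells. Als2cl fell (7.13 and 6.83 in GFP+ against 9.19 and 9.39 in GFP- CD25+ cells), as did Igfbp4 (11.39 and 10.80 in GFP+ against 12.86 and 12.92 in GFP- CD25+ cells) and Actn1 (9.48 and 9.49 in GFP+ against 10.77 and 10.93 in GFP- CD25+ cells).

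Of 29 T cell receptor signalling genes 2 rose and 1 fell, beside 5.28% and 3.45% over all genes, and their median was -0.03. Themis, an adaptor of thymic selection, was the decrease (7.41 and 7.63 in GFP+ cells, against 9.70 and 10.03 in GFP- CD25+ cells, difference -2.35). The increases were the negative regulators Ubash3b (difference 1.10) and Cbl (difference 0.77). In the cAMP machinery 4 of 22 genes rose and 3 fell. With Pde3b fell a second phosphodiesterase, Pde7a (7.72 and 7.72 in GFP+ cells, against 10.11 and 10.26 in GFP- CD25+ cells, difference -2.46), and Prkar2a, a regulatory subunit of protein kinase A (difference -1.20). The 7 Pde7a probe sets were all lower in GFP+ cells, but ranged from -2.46 to -0.39, so its size is uncertain. Pde8a (difference 0.84) and Pde1b (difference 0.79), also phosphodiesterases, rose by less than 2-fold, and the other Pde8a probe set gave -0.04. Crem, a cAMP-responsive factor, rose (8.51 and 9.42 in GFP+ against 6.17 and 6.57 in GFP- CD25+ cells, difference 2.59), but its probe sets ranged from 0.02 to 2.59. Prkar1b, on a probe set that can cross-match, rose by 2.98, with another probe set at -0.01 and 1 GFP- CD25+ array below the median. The stimulatory G protein Gnas (12.00 and 11.99 in GFP+ against 11.85 and 11.95 in GFP- CD25+ cells) and the cyclase Adcy7 (12.22 and 12.18 in GFP+ against 12.55 and 12.58 in GFP- CD25+ cells) did not pass. Of 17 genes on a list of AP-1, Egr and Nr4a factors and some others, 5 rose and 0 fell. The AP-1 factors Jun (7.91 and 7.61 in GFP+ against 6.37 and 5.62 in GFP- CD25+ cells), Batf (8.95 and 9.08 in GFP+ against 7.58 and 7.55 in GFP- CD25+ cells) and Junb (6.73 and 6.73 in GFP+ against 5.76 and 5.67 in GFP- CD25+ cells) rose, beside Crem and Dusp1. No measured Egr or Nr4a gene passed, among them Egr1 (11.31 and 11.03 in GFP+ against 11.12 and 11.25 in GFP- CD25+ cells). Jund (10.24 and 10.25 in GFP+ against 10.80 and 10.62 in GFP- CD25+ cells) did not pass either.

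Of 18 galectin, annexin and S100 genes 8 rose and 1 fell, with a median of 1.00. Capg, an actin-capping protein, had levels of 11.78 and 11.97 in GFP+ cells, against 8.98 and 9.29 in GFP- CD25+ cells (difference 2.74, SE 0.131, adjusted p = 0.00516). The calcium-binding S100a4 (10.93 and 10.76 in GFP+ against 8.87 and 8.49 in GFP- CD25+ cells) and S100a6 (10.65 and 10.93 in GFP+ against 8.57 and 8.67 in GFP- CD25+ cells) rose, and Anxa4 rose (difference 2.36, another probe set 0.17). Anxa1, an annexin of anti-inflammatory signalling, was the decrease (4.65 and 4.61 in GFP+ cells, against 7.42 and 7.43 in GFP- CD25+ cells, difference -2.80). Of 12 interferon-inducible GTPases 6 rose and 0 fell, with a median of 0.57. After Gbp2b came Gbp3 (11.56 and 11.65 in GFP+ against 9.20 and 9.68 in GFP- CD25+ cells, difference 2.17) and Gbp7 (12.06 and 12.31 in GFP+ against 10.84 and 11.03 in GFP- CD25+ cells, difference 1.25), while Gbp2 (11.09 and 11.50 in GFP+ against 11.10 and 10.97 in GFP- CD25+ cells), Gbp6 (10.94 and 10.89 in GFP+ against 10.59 and 10.47 in GFP- CD25+ cells) and Gbp8 (10.23 and 10.29 in GFP+ against 9.79 and 9.96 in GFP- CD25+ cells) did not pass.

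Markers of other cells were read beside these groups. CD4 T cell markers were at or above the array median in 6 of 6 measured on all 4 arrays, with medians of 11.97 and 11.94 in GFP+ cells and 12.14 and 12.08 in GFP- CD25+ cells. Among them Thy1 fell (difference -1.10) and Cd5 rose (difference 0.72). Of 9 B cell markers 3 rose, Cd79b (6.71 and 6.96 in GFP+ against 3.26 and 3.88 in GFP- CD25+ cells), Cd74 (6.96 and 7.02 in GFP+ against 4.56 and 3.67 in GFP- CD25+ cells) and Ighm (12.18 and 12.04 in GFP+ against 11.17 and 11.09 in GFP- CD25+ cells), and the log2 of their summed level was 12.27 and 12.15 in GFP+ cells and 11.29 and 11.20 in GFP- CD25+ cells, carried by 1 probe set of Ighm. The 8 Ighm probe sets ranged from -0.25 to 2.40, and 3 of them were higher in GFP+ cells. Cd22, another B cell marker, was at 4.97 and 4.98 in GFP+ cells, against 6.67 and 6.56 in GFP- CD25+ cells, at least 2-fold lower in both pairs, and did not pass (SE 0.468, adjusted p = 0.125). Ms4a1 (CD20) was at 3.42 and 3.43 in GFP+ against 3.45 and 3.47 in GFP- CD25+ cells, and the class II chains H2-Ab1 (2.79 and 2.83 in GFP+ against 2.91 and 2.90 in GFP- CD25+ cells) and H2-Eb1 (2.56 and 2.51 in GFP+ against 2.49 and 2.49 in GFP- CD25+ cells) were below the array medians. The class II chain H2-Aa was above them (3.69 and 4.02 in GFP+ against 4.34 and 3.76 in GFP- CD25+ cells) and did not pass. Cd79a, Pax5 and Blnk were below the median on all 10 arrays. The part of B cells in these 3 increases was not tested. Of 8 markers of CD8 and NK cells 3 fell. The log2 of their summed level was 6.24 and 6.40 in GFP+ cells and 9.61 and 8.82 in GFP- CD25+ cells, carried by Eomes, while Cd8a (3.13 and 3.13 in GFP+ against 3.15 and 3.15 in GFP- CD25+ cells) and Cd8b1 (4.26 and 4.41 in GFP+ against 4.47 and 4.48 in GFP- CD25+ cells) were low throughout and Tyrobp was at 2.08 and 2.08 in GFP+ against 3.45 and 2.14 in GFP- CD25+ cells. Of 11 markers of gamma delta and innate-like T cells 7 were not analysed here and 2 were below the median on all 10 arrays. The 2 measured ones fell, Zbtb16 and the scavenger receptor Cd163l1 (2.36 and 2.63 in GFP+ against 5.52 and 4.68 in GFP- CD25+ cells). The log2 of their summed level was 3.43 and 3.58 in GFP+ cells and 7.05 and 7.15 in GFP- CD25+ cells. Trgv4, a gamma chain segment among the 20 largest decreases, had levels of 5.83 and 6.17 in GFP+ cells, against 9.43 and 9.67 in GFP- CD25+ cells, with its probe sets from -3.55 to -0.12. The part of innate-like cells in the cytotoxic, Il4, Ifng and Il18r1 differences was not tested. Of 7 myeloid markers 1 rose, Cybb (8.43 and 8.37 in GFP+ against 6.02 and 6.52 in GFP- CD25+ cells). The log2 of their summed level was 13.41 and 13.38 in GFP+ cells and 12.93 and 13.08 in GFP- CD25+ cells, carried by Ctss (13.31 and 13.28 in GFP+ against 12.86 and 13.02 in GFP- CD25+ cells), and Csf1r (2.16 and 2.28 in GFP+ against 2.36 and 2.30 in GFP- CD25+ cells), Clec7a (2.45 and 2.46 in GFP+ against 2.47 and 2.47 in GFP- CD25+ cells) and Lyz2 (3.28 and 3.55 in GFP+ against 3.45 and 3.35 in GFP- CD25+ cells) were near background. Of 4 plasma cell markers none passed (0 at an adjusted p under 0.05 by limma), with Jchain at 2.55 and 2.57 in GFP+ against 3.47 and 2.67 in GFP- CD25+ cells and Mzb1 at 2.12 and 2.11 in GFP+ against 2.15 and 2.14 in GFP- CD25+ cells. Of 9 erythroid and platelet markers 6 were below the median on all 10 arrays and left out, and 3 were not analysed here.

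The other arrays showed where these levels stood. For the 20 largest measured increases both gfpko GFP+ arrays lay between the compared populations for 11 genes, on the GFP- CD25+ side for 4 (Klrg1, Epcam, Nrn1 and Cd74) and on the GFP+ side for 1, Prg4. GFP- CD25- cells lay below both GFP- CD25+ arrays for 17 of the 20. For the 20 largest measured decreases both gfpko GFP+ arrays lay between for 15 and on the GFP+ side for 5, Eomes, Tbx21, Nkg7, Ifng and Il18rap. GFP- CD25- cells separated these decreases. They were at or above both GFP- CD25+ arrays for 6 genes, Pde3b (11.73), Dapl1, Tgfbr3 (10.61), Vipr1 (9.19), Tmie (8.96) and Hs3st3b1 (9.15, with another probe set differing by -0.02 between the compared populations), and below both for the other 14, such as Cxcr6 (8.38), Trgv4 (5.04), Ffar2 (3.27) and Nkg7 (7.76). The empty vector array held transduced cells sorted for GITR after transfer. Its level was on the GFP+ side for 8 of the 20 increases, between for 9 and on the GFP- CD25+ side for 3. Klrg1 (13.34) and Itgae (12.93) were higher there than in GFP+ cells. Prg4 (4.70) and Gsta4 (3.57) lay below the GFP- CD25+ arrays, and Gpr83 (8.27) lay within their range. Of the 20 decreases, 6 were on the GFP+ side, 11 between and 3 on the GFP- CD25+ side (Ctla2a, Ctla2b and Il18rap). That array had an Actb 3′ to 5′ difference of 5.87. These levels share arrays with the comparison and carry no test.

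**Figure D4:**
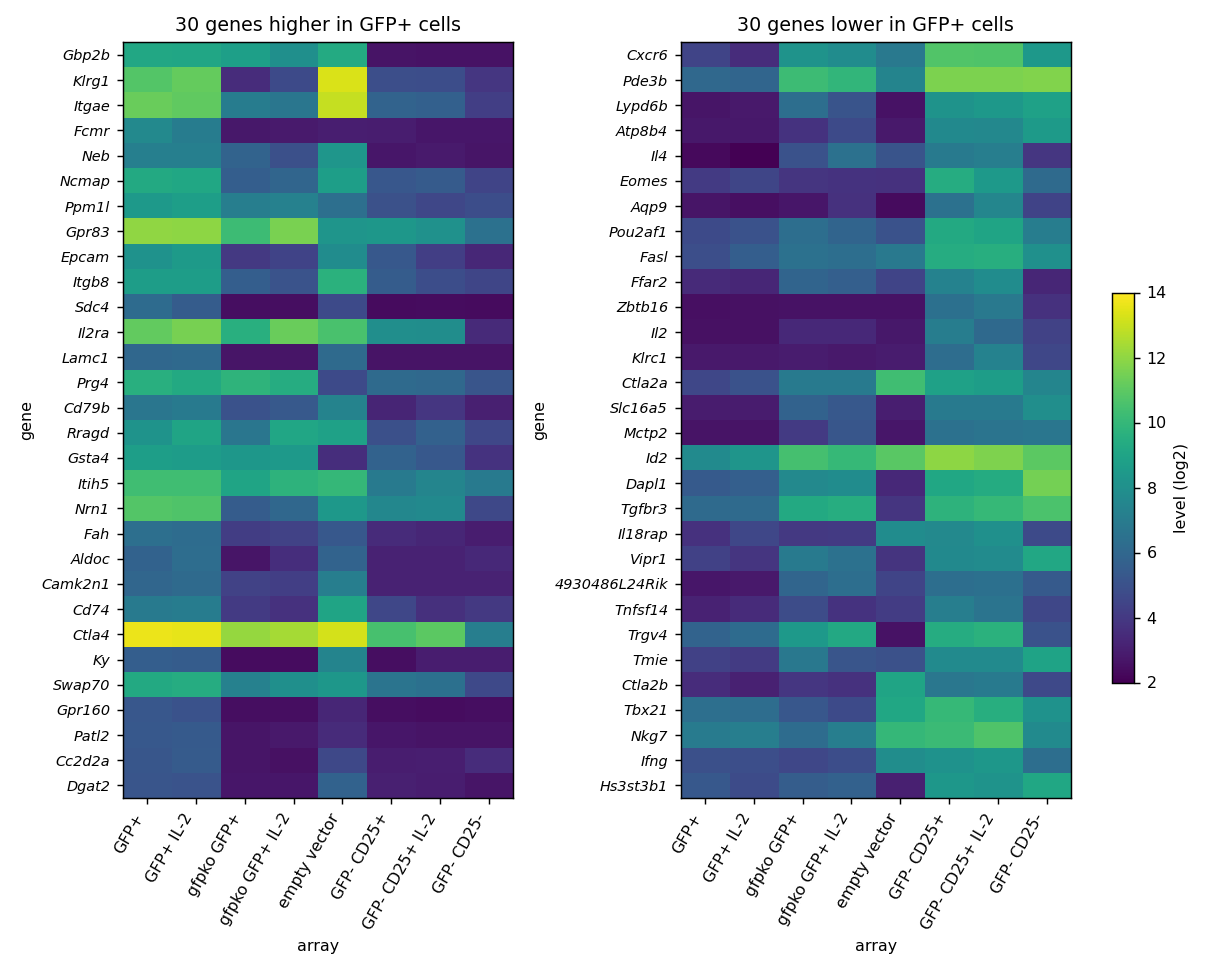
Log2 level (colour) of the 30 genes higher (left) and the 30 genes lower (right) in GFP+ cells on 8 arrays: GFP+ cells, gfpko GFP+ cells, the empty vector array, GFP- CD25+ cells and GFP- CD25- cells. Klrg1 is dark in both gfpko GFP+ arrays and bright in GFP+ cells, and Dapl1 and Pde3b are bright in GFP- CD25- cells.

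The pairs differed in size for few genes. The difference changed by at least 2-fold between them for 200 genes (1.68%), 137 of them more positive after IL-2. With 4 arrays this cannot be tested. Among genes at or above the median on all 4 arrays the largest falls of the difference were in Gm9222, at 8.33 and 6.45 in GFP+ cells, against 4.90 and 5.70 in GFP- CD25+ cells, and Crispld2, at 5.38 and 4.57 in GFP+ cells, against 3.10 and 4.84 in GFP- CD25+ cells. Both were read by probe sets that can cross-match, and another Crispld2 probe set gave -0.01 over both pairs. Ddit4, a stress-induced brake on mTORC1, had levels of 11.63 and 10.93 in GFP+ cells, against 10.67 and 11.84 in GFP- CD25+ cells, so it was higher in GFP+ cells without IL-2 and lower with it. Ntmt1 (8.58 and 7.19 in GFP+ against 6.33 and 6.73 in GFP- CD25+ cells) and Stox2 (5.45 and 3.79 in GFP+ against 3.10 and 3.07 in GFP- CD25+ cells) were also among the 8 largest falls. The largest rises were in Snai3, at 3.51 and 3.39 in GFP+ cells, against 5.67 and 3.63 in GFP- CD25+ cells, and the potassium channel Kcnk5, at 4.02 and 5.28 in GFP+ cells, against 6.35 and 5.79 in GFP- CD25+ cells. Ccdc173 (4.15 and 4.70 in GFP+ against 4.52 and 3.46 in GFP- CD25+ cells) and Rmdn1 (5.56 and 6.45 in GFP+ against 5.91 and 5.18 in GFP- CD25+ cells) were also among the 8 largest rises. None of these 9 genes had an adjusted p under 0.05 by limma for the difference over both pairs. Socs1, an inhibitor of JAK kinases, had levels of 2.32 and 3.91 in GFP+ cells, against 2.04 and 2.05 in GFP- CD25+ cells, with the GFP+ IL-2 array the only one of the 4 above the median.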

How the data were processed

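Each of the 10 Affymetrix arrays measured RNA of sorted CD4 T cells after 2 rounds of cRNA amplification, per the labels' protocols, a step that favours 3′ ends. The deposited log2 values of 45101 probe sets were normalized together by the authors, per the series' design text. Software and probe summary: not given in the sources used here. The log2 scale was read from the values. Probe sets with 1 gene (34958, less 13 controls, with 932 of several genes and 9211 of none left out) were named by the platform annotation and updated by Entrez ID to GRCm38.p6 (34754 matched). Those at or above the array median on at least 1 array were kept, and the brightest stood for its gene (11938 genes). Groups came from titles.

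Population and IL-2 were additive terms of a model over the 6 arrays of GFP+, GFP- CD25+ and gfpko GFP+ cells, in limma 3.58.1 (R 4.3.3, 2 residual degrees of freedom, prior 2.23), with Benjamini-Hochberg adjustment over all genes and a test on simulated data. "At least" marks a bound, in which values of the lower side below the array median were raised to it. Named were the 20 largest measured changes and the 10 largest bounds each way, up to 5 called each way and 3 uncalled members of each list, markers, and the 8 largest shifts each way. Genes outside this rule (Entpd1, Nt5e, Gata3, Ikzf1, Ikzf3, Satb1, Lef1, Socs1, Socs2, Cd27, Tnfsf10, Traf1, Traf2) and Pim2 were chosen after their values were seen. The lists and the comparison were chosen with earlier results of these data known. List members without a probe set of 1 gene were not analysed here. Alternatives covered normalization, centring, filters, probe sets, a floor, the arrays in the fit, the variance model and single pairs.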

Additional observations from a re-analysis of the deposited data

How the results depend on the processing

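The count of 1042 called genes was 1000 with quantile normalization, 1558 with centring on the median over kept genes, 1161 with a filter on the mean, 1008 with the mean of all probe sets, 1024 without probe sets that can cross-match, 940 with a floor at the array median, 836 with only the 4 arrays and 987 with an intensity trend and robust variance. With all 10 arrays it was again 1042 by construction. Each added array was a population of its own there and added nothing to the spread. With no filter on dim probe sets it was 609, of which 546 were among the 1042, over more genes tested. From a single pair with the spread of the 6 arrays it was 238 to 260, all among the 1042, where 1 pair in place of both widens the error by construction. The count of 607 genes at least 2-fold different in both pairs was 854 to 946 with a single pair and 269 at 3-fold, and 528 to 608 under the other alternatives. The count of 200 genes whose difference changed at least 2-fold was 166 to 210. Of 151 named and called genes, 122 stayed called with only the 4 arrays, 106 with no filter, 91 in the untreated pair alone and 90 in the IL-2 pair alone. None of them changed sign in these settings. Only the cell cycle inhibitor Cdkn1b, higher by 0.58, changed sign with the mean of all its probe sets, at -0.0368, its 2 probe sets giving different signs. No paired analysis beyond the IL-2 term of the model was possible because the labels give no replicate numbers. Values near the array median limit what dim genes can show.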

Other observations

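Further lists are given beside 5.28% higher and 3.45% lower over all genes. Of 20 ribosome biogenesis genes 3 fell and 0 rose, with a median of -0.62. Polr1b, a subunit of RNA polymerase I, had levels of 5.38 and 5.37 in GFP+ cells, against 6.81 and 6.76 in GFP- CD25+ cells (difference -1.41, SE 0.102, adjusted p = 0.00852), and Wdr12 (difference -1.09) and Rrs1 (difference -0.87), which act in assembly of the large ribosomal subunit, fell too. Npm1 (14.04 and 14.11 in GFP+ against 14.31 and 14.26 in GFP- CD25+ cells) and Ncl (12.43 and 12.58 in GFP+ against 12.96 and 12.79 in GFP- CD25+ cells) did not pass. Of 28 cell cycle genes 1 rose, Cdkn1b (difference 0.58), and 0 fell. Pcna had levels of 12.56 and 13.27 in GFP+ cells, against 12.79 and 13.35 in GFP- CD25+ cells, higher with IL-2 in both populations.

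Of 15 genes of the BCL2 family and caspases 1 rose, Pmaip1 (Noxa), a promoter of apoptosis, at 7.36 and 7.55 in GFP+ cells, against 4.89 and 4.96 in GFP- CD25+ cells (difference 2.53, SE 0.135, adjusted p = 0.00533). Bcl2 (10.80 and 10.56 in GFP+ against 10.53 and 10.53 in GFP- CD25+ cells) and Mcl1 (13.29 and 13.19 in GFP+ against 12.80 and 12.87 in GFP- CD25+ cells), which oppose apoptosis, did not pass. Of 20 genes of PI3K and mTOR control 3 rose, led by Phlpp1, a phosphatase of Akt, at 9.15 and 8.92 in GFP+ cells, against 6.92 and 6.81 in GFP- CD25+ cells (difference 2.17, SE 0.113, adjusted p = 0.00516). Of 8 RGS regulators of G protein signalling 2 rose. Rgs1 had levels of 10.52 and 11.99 in GFP+ cells, against 8.82 and 10.55 in GFP- CD25+ cells (difference 1.57, SE 0.140, adjusted p = 0.0127), higher with IL-2 in both populations, while Rgs14 rose by 0.59. Of 14 follicular helper genes 3 fell, Il4, Il21 and Sostdc1 (at least 2.75-fold lower), and 1 rose, Il6st (difference 0.68, with 1 of 3 probe sets at -0.02).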
